A study of Mus musculus with 11 samples.

Results

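Genes of the Nrf2 antioxidant program and of glutathione synthesis were followed in mouse liver after induction of YAP, 10 of the 20893 genes in the expression table. They were taken by gene symbol: Nfe2l2, the gene of the transcription factor Nrf2, and 9 genes known as its targets or as enzymes of the glutathione and NADPH supply (Nqo1, Hmox1, Gclc, Gclm, Slc7a11, Txnrd1, Srxn1, G6pdx and Gpx2). All 10 were in the table, and 9 passed the filter on low values, whereas the glutathione peroxidase gene Gpx2 did not. After 7 days of induction 4 of the 9, Hmox1, G6pdx, Nqo1 and Nfe2l2, were higher than in control livers, against 18.0% of all genes tested. The call of Nqo1 was lost in 15 of 24 alternative analyses and that of Nfe2l2 in 6. The other 5 did not pass. They were Gclc and Gclm, the 2 genes of the enzyme that makes the first step of glutathione synthesis, the cystine carrier gene Slc7a11, Txnrd1 and Srxn1. After 3 days none of the 9 passed the test, and of all 14244 genes tested only 6 did.

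Bulk RNA-seq covered 11 whole livers of mice on a C57BL/6 background, 1 library each. All carried ROSA26-rtTA-IRES-EGFP, the doxycycline-activated transactivator. The 4 controls were labelled WT and had doxycycline food for 7 days, 4 livers were from tetYAP mice after 3 days of doxycycline food, and 3 livers were from tetYAP mice after 7 days. tetYAP encodes a constitutively active YAP, mutated in an inhibitory phosphorylation site. Per the study's methods rtTA was released by Alb-CRE, whose albumin promoter is active in the hepatocyte lineage. In which liver cells the transgene was on was not measured here, and RNA of all liver cells is in the libraries. The labels gave no age, did not say whether the controls carried Alb-CRE, and held no group of tetYAP mice without doxycycline. Whole tissue was measured, so fewer cells of a type and less RNA per cell cannot be told apart.

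Nrf2 is held at a low level by Keap1, an adaptor that hands it to a ubiquitin ligase. When electrophiles or oxidants modify Keap1, Nrf2 accumulates, pairs with a small Maf protein and binds antioxidant response elements (ARE) near its targets. These encode quinone and haem-degrading enzymes, the enzymes that make glutathione, the thioredoxin system, and enzymes that supply NADPH. In liver the program is known for its part in the handling of drugs and bile acids. Nrf2 activity is set largely by protein stability, which mRNA levels do not report.

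Short promoter windows show which members carry, close to the start, the letters that Nrf2 binds. RefSeq windows around start sites (GRCm38.p6), from base -250 to base 49, were given for 8 of the 10 genes. Sites farther away were not searched. Hmox1 and Gclc had no entry. The ARE core TGACNNNGC, searched on both strands, was found in windows of Nfe2l2, Gclm, Txnrd1, Srxn1 and G6pdx. It was not found in those of Nqo1, Slc7a11 and Gpx2. Of all 32851 windows 12.4% held it, and of all 27025 genes with windows 14.0% did. The TEAD site GGAATG, the site of the DNA-binding partners of YAP, was in 14.7% of all windows and in none of the members' windows. A match of these letters is a description of the window, and no match says only that they are not in it. The 4 stretches with a match upstream of the start are given 5′ to 3′ on the strand of the gene, with the match in capitals. In Gclm, Txnrd1 and G6pdx the capitals read as the core on the other strand. They are shown because they hold the core in genes that behaved differently after 7 days, with Nfe2l2 and G6pdx higher and Gclm level.
Nfe2l2, chr2:75704875-75704913, minus strand: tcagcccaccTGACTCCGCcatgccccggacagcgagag
Gclm, chr3:122245403-122245451, plus strand: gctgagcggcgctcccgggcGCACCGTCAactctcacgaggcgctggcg
Txnrd1, chr10:82859094-82859142, plus strand: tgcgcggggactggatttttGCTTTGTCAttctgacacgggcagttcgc
G6pdx, chrX:74428909-74428957, minus strand: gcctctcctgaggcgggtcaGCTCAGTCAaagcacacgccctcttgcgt
The Txnrd1 match was in 1 of its 3 windows, and the Srxn1 match, GCTAGGTCA, was downstream of its start.

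The values are eRPKM, exonic reads per kilobase of a gene that the authors scaled within each library, and so compare the share of reads a gene takes. Libraries held 1251396 to 5495697 reads on genes in the control group, 2660233 to 3681416 in the 3-day group and 5312486 to 5941357 in the 7-day group. Depth therefore was not balanced over the groups. By the reads of Xist and Ddx3y, controls and 3-day livers were 2 female and 2 male each and all 3 livers at 7 days were female, so that sex and 7 days were partly confounded. Liver 2 at 7 days had reads on 19280 genes, against 15809 and 15796 in the other 7-day livers. The row of Yap1 was at 13.9 to 21.1 eRPKM in controls, 15.3 to 19.3 in 3-day livers and 17.4 to 19.0 in 7-day livers and did not separate the groups. Changes were tested with limma on log2(eRPKM + 0.5) over the 14244 genes that reached 0.5 eRPKM in 3 or more libraries. A gene was said to rise or fall where its adjusted p (Benjamini-Hochberg) was under 0.01 and its log2 fold change beyond 0.5 in size. Each member was also tested by exact permutation over livers (two-sided), for which 0.0286 is the smallest p that 4 livers against 4 or against 3 can give. Nothing in the labels says more of how far the livers were independent, so p-values measure the spread between these samples.

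**Figure D1:**
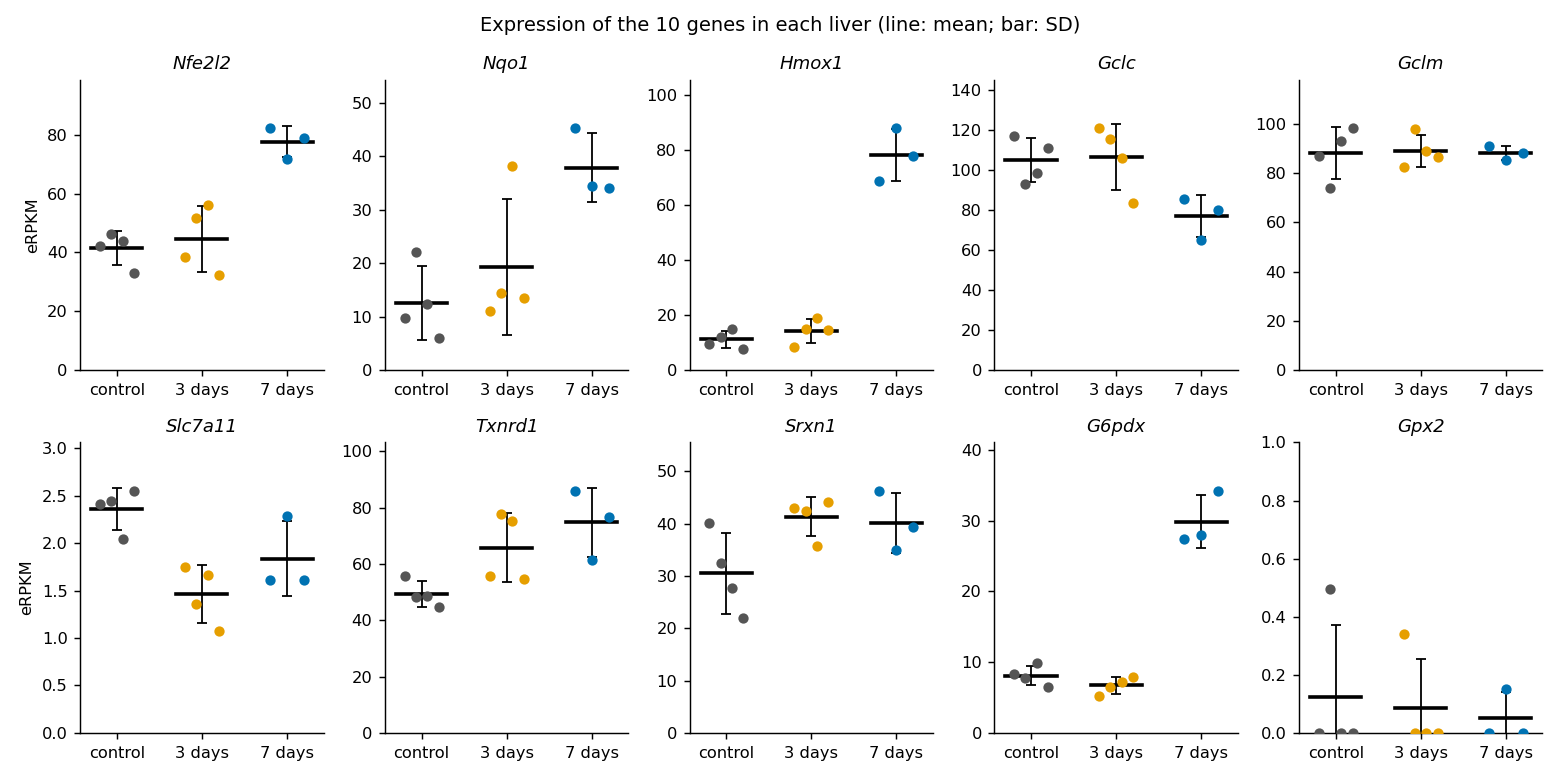
Expression of the 10 genes in each liver, in eRPKM on linear axes that start at 0; each point is 1 liver, the line is the group mean and the bar the SD (control n = 4, 3 days n = 4, 7 days n = 3). Hmox1 and G6pdx at 7 days stood clear of all other livers, Gclm was level, and Gpx2 had values above 0 in 3 livers.

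Nfe2l2 (chromosome 2, 75513570 to 75542698, minus strand, mm9), the transcript of Nrf2 itself, was at 42.3, 46.2, 43.9 and 33.2 eRPKM in control livers 1 to 4. It was at 38.3, 51.7, 56.1 and 32.2 eRPKM in the 3-day livers and at 82.2, 71.7 and 78.9 eRPKM at 7 days. The 3-day values spread around the controls, and all 7-day values lay above every other liver. Female controls had 43.9 and 46.2 eRPKM and male controls 33.2 and 42.3, while in 3-day livers the sexes overlapped. At 7 days the transcript was 1.88-fold the control level, a log2 fold change of 0.91 (95% interval 0.49 to 1.33, SE 0.19, limma adjusted p = 0.00293, exact permutation p = 0.0286). The 3-day log2 fold change was 0.08 (SE 0.18, limma adjusted p = 0.894). The 7-day call was lost, with adjusted p between 0.0140 and 0.0435 and a log2 fold change of 0.64 to 0.89, in 6 of 24 alternatives, among them female livers only (0.78) and leaving out 7-day liver 1 (0.86) or liver 3 (0.89).

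Hmox1 (chromosome 8, 77617490 to 77624495, plus strand) encodes haem oxygenase 1, which degrades haem to biliverdin, iron and carbon monoxide and is also strongly expressed by macrophages that clear red cells. Control livers 1 to 4 had 9.64, 12.2, 15.1 and 7.88 eRPKM, from 16 to 109 reads. The 3-day livers had 8.55, 15.1, 18.9 and 14.5 eRPKM, and the 7-day livers 68.8, 88.1 and 78.0. Every 7-day liver was above every other liver, with no overlap. The rise at 7 days was 6.89-fold (95% interval 4.66 to 10.2), a log2 fold change of 2.78 (SE 0.26, limma adjusted p = 1.02e-05, exact permutation p = 0.0286), and it passed in all 24 alternatives, with log2 fold changes of 2.48 to 2.94. The 3-day log2 fold change was 0.32 (SE 0.24, limma adjusted p = 0.619), and 1 of 4 livers was clearly above all controls. Female controls had 12.2 and 15.1 eRPKM and male controls 7.88 and 9.64, while in 3-day livers the sexes overlapped. Among female livers the 7-day log2 fold change was 2.48.

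The macrophage markers moved with Hmox1. Of 10 listed, 8 had a row here and were tested (Adgre1 and Emr1 were not analysed), and 7 of these 8 rose at 7 days (87.5%, against 18.0% of all genes), among them Marco, a scavenger receptor (log2 fold change 3.47, limma adjusted p = 0.000239), and Cd163, the haemoglobin scavenger receptor (2.84, limma adjusted p = 7.23e-05). Clec4f, a marker of resident Kupffer cells, did not pass (0.87, limma adjusted p = 0.0163), but did after quantile normalization. It was at 130 to 153 eRPKM in 7-day livers and at 50.9 to 103 in controls. With size factors or limma-voom 6 of the 8 markers rose, and among female livers 5 did. The summed level of the 8 was 193 to 408 eRPKM in controls, 229 to 442 in 3-day livers and 864 to 926 in 7-day livers, and none was at 0 throughout. By sex, the sums in controls were 342 and 408 eRPKM (female) and 193 and 266 eRPKM (male). The part of macrophage RNA in the higher Hmox1, or in any other member, was not tested. The summed level of 8 hepatocyte markers was 1660 to 4771 eRPKM in controls, 2027 to 2536 in 3-day livers and 1234 to 1396 in 7-day livers. Among controls the sum was higher the shallower the library: 4771 eRPKM at 1251396 reads, 3011 at 2409689, 2169 at 3895224 and 1660 at 5495697. The 7-day libraries held 5312486 to 5941357 reads, and the part of depth in their lower sums was not tested. Of the 8, 3 fell at 7 days (37.5%, against 5.77% of all genes) and none rose. All 8 had a control mean of 150 eRPKM or more, a class in which 38.9% of all genes fell. Of 6 biliary markers tested, 1 rose, Krt7 (16.7%, against 18.0% of all genes). Krt7 was at a mean of 0.40 eRPKM in controls and 1.92 at 7 days. All 6 had positive log2 fold changes at 7 days, from 0.41 to 1.57 with a median of 1.02, beside 0.26 over all genes. The sum of all 7 listed ranged over 38.3 to 49.0 eRPKM in controls and over 41.1 to 84.7 in 3-day livers, with 62.6 to 112 in 7-day livers, so that the 3-day livers overlapped both other groups. Most of that sum was Spp1, with a mean of 38.7 eRPKM in controls, 60.7 at 3 days and 67.4 at 7 days.

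**Figure D2:**
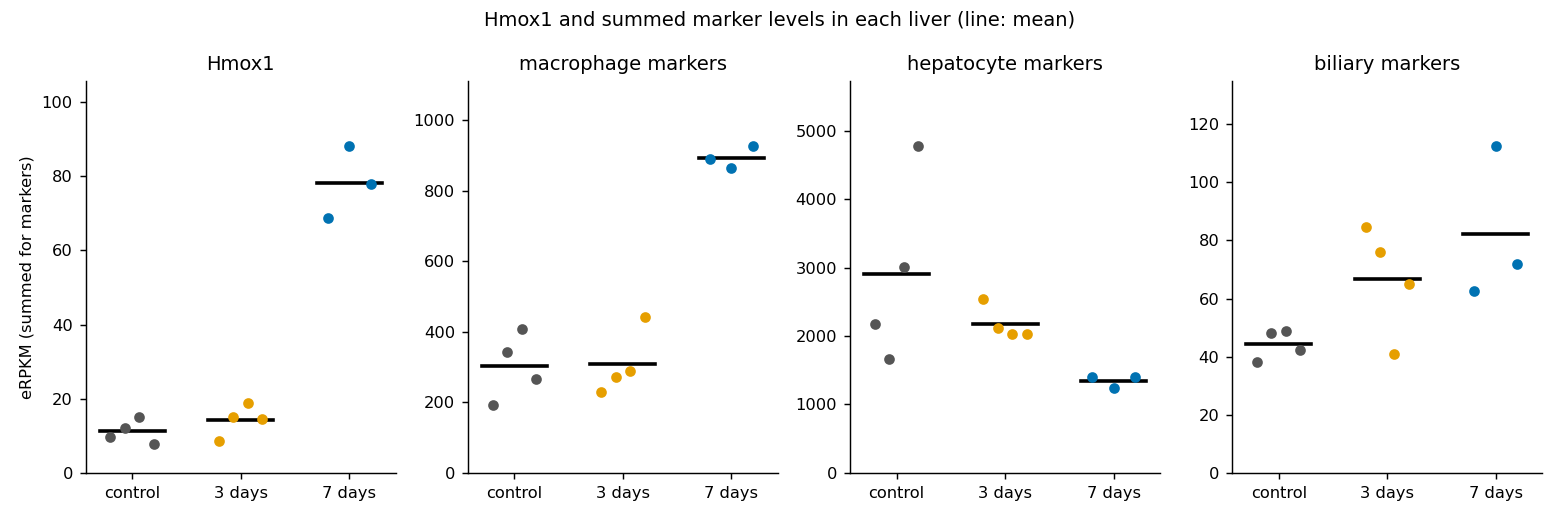
Hmox1 and the summed levels of macrophage, hepatocyte and biliary markers in each liver, in eRPKM on linear axes that start at 0; points are livers and lines are group means. The 7-day livers were highest for Hmox1 and for the macrophage markers (864 to 926) and lowest for the hepatocyte markers (1234 to 1396). Among controls the hepatocyte sum was highest in the shallowest library (4771) and lowest in the deepest (1660). Most of the biliary sum was Spp1.

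Nqo1 (chromosome 8, 109912125 to 109927106, minus strand), the quinone reductase often used as a readout of Nrf2, varied more on the log2 scale than any other member among the controls (SD 0.75) and among the 3-day livers (SD 0.78). Controls had 9.79, 22.2, 12.5 and 6.00 eRPKM. The 3-day livers had 11.03, 14.5, 38.2 and 13.6 eRPKM, with liver 3 as high as the 7-day livers, which had 45.3, 34.4 and 34.0. At 7 days all 3 livers were above all controls, at 3.21-fold (95% interval 1.70 to 6.09), a log2 fold change of 1.68 (SE 0.43, limma adjusted p = 0.00771), which the exact permutation test did not bring under 0.05 (p = 0.0571). The call was lost in 15 of 24 alternatives, with adjusted p from 0.00163 to 0.148 over all of them. Leaving out control 1, 3 or 4, 3-day liver 2 or any of the 7-day livers ended it, with log2 fold changes of 1.396 to 1.75. Female controls had 12.5 and 22.2 eRPKM and male controls 6.00 and 9.79, and among female livers the 7-day log2 fold change was 1.15 (limma adjusted p = 0.0636).

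Glutathione is made from glutamate, cysteine and glycine, and its first step, by glutamate-cysteine ligase, limits the rate. Gclc encodes the catalytic subunit and Gclm the modifier subunit that makes the enzyme more efficient. Gclc (chromosome 9, 77602342 to 77642292, plus strand) was the most abundant member per length in controls, at 117, 93.2, 98.6 and 111 eRPKM. It was at 121, 115, 106 and 83.8 eRPKM at 3 days and at 85.6, 65.2 and 80.1 eRPKM at 7 days. All 7-day livers lay below all controls, while the 3-day group overlapped both. The log2 fold change at 7 days was -0.45 (SE 0.16), which did not pass (limma adjusted p = 0.0466, exact permutation p = 0.0286) and ranged from -0.73 to -0.15 over the 24 alternatives. The 1237 genes with a control level of 50 to 150 eRPKM had a median log2 fold change of -0.35 and quartiles of -0.74 and -0.04, between which Gclc lay. Sex moved with Gclc too: female controls had 93.2 and 98.6 eRPKM and male controls 111 and 117, and among female livers the 7-day log2 fold change was -0.32.

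Gclm (chromosome 3, 121948475 to 121972902, plus strand) was level throughout. Controls had 86.9, 73.9, 93.0 and 98.2 eRPKM, 3-day livers 82.5, 97.7, 88.9 and 86.4, and 7-day livers 91.0, 85.4 and 88.1, so the 7-day values lay inside the control range. The log2 fold change at 7 days was 0.01 (SE 0.14, 95% interval -0.28 to 0.31, limma adjusted p = 0.960). Its sign turned with the scaling, to -0.26 with median-ratio size factors and 0.37 after quantile normalization, and it passed under neither. On the opposite strand 296 exon bases overlap a non-coding gene, Gm17494, and the authors' alignment did not use strand. Taken as a ratio within each library, which a single scaling factor per library does not touch, Gclc stood above Gclm by 0.26 ± 0.15 (log2, SD, n = 4) in controls and by 0.25 ± 0.24 (SD, n = 4) at 3 days, and below it at 7 days, at -0.20 ± 0.16 (SD, n = 3). The shift was -0.46 from controls to 7 days and -0.45 from 3 to 7 days. This ratio was chosen after the values were seen, so the shift is a description with no test.

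Slc7a11 (chromosome 3, 50168858 to 50247535, minus strand) encodes the cystine carrier xCT, the entry of cysteine for glutathione in many cells and a gene of low level in liver. Controls had 2.41, 2.45, 2.04 and 2.55 eRPKM, from 37 to 156 reads. The 3-day livers had 1.75, 1.36, 1.66 and 1.08 eRPKM, all below all controls, and the 7-day livers 1.61, 2.29 and 1.61. It was the only member with groups apart at 3 days, with a log2 fold change of -0.56 (SE 0.22), which did not pass over all genes (limma adjusted p = 0.321, exact permutation p = 0.0286). The 7-day log2 fold change was -0.30 (SE 0.23, limma adjusted p = 0.332), and after quantile normalization -0.89, which passed.

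Of the enzymes of the thioredoxin branch, Txnrd1 (chromosome 10, 82296696 to 82360469, plus strand), thioredoxin reductase 1, had 55.6, 48.1, 48.7 and 44.7 eRPKM in controls. It had 55.6, 77.6, 75.3 and 54.7 eRPKM at 3 days and 85.9, 61.5 and 76.7 at 7 days. All 7-day livers were above all controls, as were 2 of 4 at 3 days, while 3-day liver 1 was level with the highest control. The log2 fold change was 0.40 at 3 days (SE 0.16), with a limma adjusted p of 0.341. At 7 days it was 0.59 (SE 0.17), with a limma adjusted p of 0.0176, and neither passed the threshold. After quantile normalization the 7-day value was 0.77 and passed. Srxn1 (chromosome 2, 151931252 to 151937112, plus strand), sulfiredoxin, which repairs overoxidised peroxiredoxins, had 40.2, 32.5, 27.6 and 21.9 eRPKM in controls. It had 43.0, 42.4, 35.8 and 44.1 eRPKM at 3 days and 46.3, 34.9 and 39.3 at 7 days. The 3-day and 7-day livers were alike in range and overlapped the highest control, with log2 fold changes of 0.46 (SE 0.18, limma adjusted p = 0.319) and 0.41 (SE 0.19, limma adjusted p = 0.107).

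G6pdx (chromosome X, 71654822 to 71674533, minus strand) encodes glucose-6-phosphate dehydrogenase, which opens the oxidative pentose phosphate pathway and yields the NADPH that keeps glutathione and thioredoxin reduced. Controls had 8.28, 7.75, 9.86 and 6.52 eRPKM, and 3-day livers 5.15, 6.54, 7.26 and 7.96. The 7-day livers had 27.5, 27.9 and 34.2 eRPKM, far above all others. The rise was 3.55-fold (95% interval 2.64 to 4.77), a log2 fold change of 1.83 (SE 0.20, limma adjusted p = 2.67e-05, exact permutation p = 0.0286), and it passed in all 24 alternatives, with log2 fold changes of 1.57 to 1.92. The 3-day log2 fold change was -0.25 (SE 0.18, limma adjusted p = 0.605). G6pdx shares 532 exon bases with Ikbkg on the other strand. Ikbkg was at 34.7 to 46.0 eRPKM in controls and 31.2 to 36.4 at 7 days, with a log2 fold change of -0.21 (limma adjusted p = 0.374). The gene is on the X chromosome, and female and male controls overlapped, at 7.75 and 9.86 against 6.52 and 8.28 eRPKM. In 3-day livers the sexes did not overlap, at 7.26 and 7.96 against 5.15 and 6.54 eRPKM.

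Gpx2 (chromosome 12, 77893322 to 77896541, minus strand), a glutathione peroxidase best known from the gut epithelium, was at the limit of detection. It had 3 reads in control 2, 1 read in 3-day liver 1, 1 read in 7-day liver 2 and none in the other 8 livers. A change was not detectable at this depth.

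**Figure D3:**
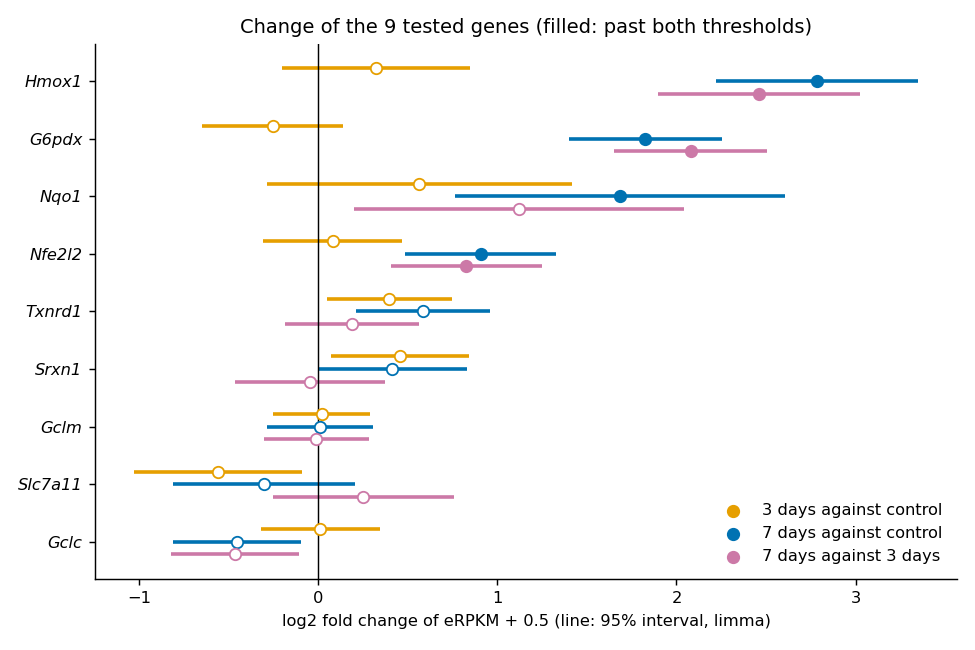
Log2 fold changes of the 9 tested genes for the 3 comparisons, on the log2(eRPKM + 0.5) scale, with 95% intervals from limma. Filled points passed both thresholds. Hmox1, G6pdx, Nqo1 and Nfe2l2 are filled for 7 days against control, none for 3 days against control.

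At 7 days 4 of the 9 tested members rose and none fell, against 18.0% of all tested genes that rose and 5.77% that fell. All 7-day livers were above all controls for 5 members (36.7% of all genes) and below them for 1, Gclc (13.3% of all genes). The median log2 fold change was 0.59 over the 9 and 0.26 over all genes tested. At 3 days none of the 9 rose or fell by limma, and 3 had an unadjusted p under 0.05 (Slc7a11, Srxn1 and Txnrd1). Over all genes 0.0421% rose (6 genes) and 0% fell, and 1718 had an unadjusted p under 0.05. No member had all 3-day livers above all controls, against 3.38% of all genes, and Slc7a11 had them all below, against 2.25%.

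Between 3 and 7 days Hmox1, G6pdx and Nfe2l2 rose, 3 of the 9, while none fell, against 14.0% and 5.31% of all genes. The log2 difference was 2.46 (SE 0.26, limma adjusted p = 3.19e-05) for Hmox1 and 2.08 (SE 0.20, limma adjusted p = 1.57e-05) for G6pdx. For Nfe2l2 it was 0.83 (SE 0.19, limma adjusted p = 0.00638), and that call was lost in 14 of 24 alternatives. Nqo1 did not pass (1.12, SE 0.43, limma adjusted p = 0.0563). Without 3-day liver 3 it was 1.50 and passed (limma adjusted p = 0.00510).

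Change at 7 days differed with the level in controls, so the members are also set beside genes of like level. Depth was not balanced over the groups. The 8 hepatocyte markers, all with a control mean above 150 eRPKM, summed to 4771 eRPKM in the shallowest control and 1660 in the deepest. The part of depth in the medians of the level classes was not tested. The median log2 fold change was 0.36 over the 4719 genes at 5 to 20 eRPKM in controls, where Nqo1, Hmox1 and G6pdx lie. It was 0.00 over the 2368 genes at 20 to 50 eRPKM, where Nfe2l2, Txnrd1 and Srxn1 lie, and -0.78 over the 350 genes above 150 eRPKM. In the class of Gclc and Gclm 25.5% of genes fell. The scaling also mattered: the median over all genes was 0.26 as deposited, 0.03 with median-ratio size factors and -0.08 after quantile normalization. With size factors the 7-day log2 fold changes of Hmox1 and G6pdx were 2.52 and 1.57, beside that median of 0.03.

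**Figure D4:**
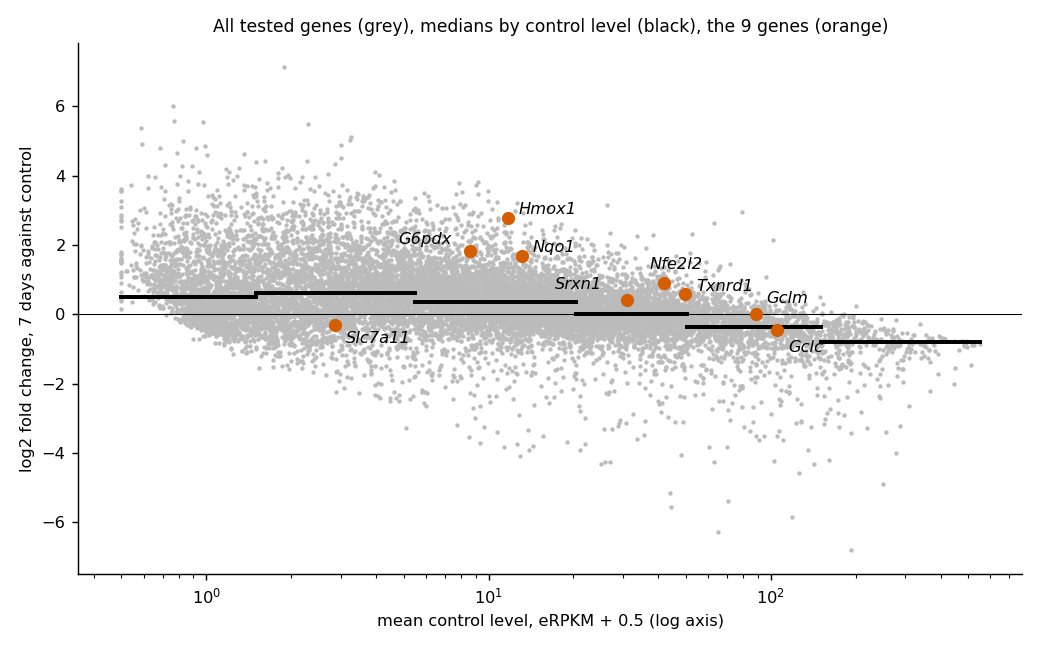
Log2 fold change at 7 days against the mean control level (eRPKM + 0.5, log axis) for all 14244 tested genes in grey, the median of each level class as a black line, and the 9 tested members in orange. Medians run from above 0 for low genes to -0.78 for the highest, and Gclc (-0.45) lies slightly below the line of its class (-0.35).

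The neighbours of these genes in the same pathways were described from fixed lists, with no set test. Each count stands against the 18.0% of all tested genes that rose at 7 days, the 5.77% that fell and their median of 0.26. Of 9 regulators of Nrf2, among them Keap1, Cul3 and Bach1, 1 rose at 7 days and none fell. It was Mafk, a small Maf partner of Nrf2, at 18.0 to 30.4 eRPKM against 10.2 to 12.5 in controls (log2 fold change 1.05, limma adjusted p = 0.000821). Among female livers none of the 9 passed. Their median log2 fold change was 0.07.

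Of the 17 other genes of the glutathione cycle 16 were tested, and 4 rose (against 18.0% of all genes) and 1 fell (6.25%, against 5.77%), with a median log2 fold change of 0.40. Gpx3, the secreted glutathione peroxidase, went from 0.509 to 3.71 eRPKM in controls to 27.0 to 40.9 at 7 days (log2 fold change 3.59, limma adjusted p = 5.30e-05) and passed in all 24 alternatives. Gss, glutathione synthetase, which makes the second and last step, rose from 38.0 to 60.3 eRPKM to 82.4 to 92.9 (0.90, limma adjusted p = 0.00120). The gamma-glutamyltransferase gene Ggt6 (1.08, limma adjusted p = 0.00157) rose as well, and so did Slc3a2, the heavy chain that pairs with Slc7a11 (0.99, limma adjusted p = 0.00834), whose call was lost in 16 of 24 alternatives. Chac2, a glutathione-degrading cyclotransferase, fell by 1.15 on the log2 scale (limma adjusted p = 0.00640), and lost its call in 12 of 24. So at 7 days Gss passed, and Gclc and Gclm did not. The difference between them was not tested.

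Among 9 genes of the pentose phosphate pathway and NADPH supply 1 rose (11.1%, against 18.0% of all genes) and 2 fell (22.2%, against 5.77%) at 7 days, with a median log2 fold change of 0.07. Pgd, the next NADPH-yielding enzyme after G6pdx, had 11.5 to 18.5 eRPKM in controls and 42.3 to 59.9 at 7 days (log2 fold change 1.88, limma adjusted p = 0.000254), and passed in all 24 alternatives. Me1, malic enzyme, which makes NADPH for lipid synthesis, went the other way, from 59.1 to 97.7 eRPKM down to 10.8 to 16.5 (-2.33, limma adjusted p = 8.88e-06), also in all 24. Idh1, the cytosolic isocitrate dehydrogenase, fell by 1.09 on the log2 scale (limma adjusted p = 0.00175). Of the genes of the non-oxidative part, Rpia, Taldo1 and Tkt did not pass. Rpe, at -0.70 (limma adjusted p = 0.0182), did not pass either, but did so as lower with size factors, quantile normalization and limma-voom.

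None of the 17 thioredoxin, peroxiredoxin and other antioxidant genes rose and 2 fell (11.8%, against 5.77% of all genes), with a median log2 fold change of -0.35. The 2 were mitochondrial enzymes, Prdx3 (-0.63, limma adjusted p = 0.00779) and Sod2 (-0.56, limma adjusted p = 0.00394), and without 7-day liver 2 neither passed. Of the 17, 6 had a control mean of 50 to 150 eRPKM and 4 a higher one. In these classes 25.5% and 38.9% of all genes fell, and the medians were -0.35 and -0.78. After quantile normalization Prdx5 rose and 4 genes fell. Of 22 glutathione S-transferases 2 rose (9.09%, against 18.0% of all genes) and 3 fell (13.6%, against 5.77%), with a median of -0.34. Of the 22, 10 had a control mean of 50 to 150 eRPKM and 4 a higher one, classes in which 25.5% and 38.9% of all genes fell. Gstm2 (1.14, limma adjusted p = 0.00975) and Gstm5 (1.08, limma adjusted p = 0.00554) rose, and Gstt2 (-1.30, limma adjusted p = 8.97e-05), Gstm6 (-0.85, limma adjusted p = 0.00369) and Gstt1 (-0.84, limma adjusted p = 0.00177) fell. Gstm2 lost its call in 15 of 24 alternatives, Gstm5 in 11, Gstm6 in 6 and Gstt1 in 4. With size factors, with limma-voom, and without 7-day liver 2, none rose. The Gstm and the Gstt genes are clusters of related copies that may share reads, which was not measured, so their single members are uncertain.

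Of 20 other genes described as Nrf2 targets 7 rose (against 18.0% of all genes) and 3 fell (against 5.77%) at 7 days, with a median log2 fold change of 0.32 beside 0.26 over all genes. The 4 largest rises were Ptgr1, a prostaglandin reductase (3.31, limma adjusted p = 1.14e-05), the export pumps Abcc5 (1.77, limma adjusted p = 0.000964) and Abcc4 (1.74, limma adjusted p = 0.00394), and Osgin1 (1.54, limma adjusted p = 0.00157). Akr1c13 (-1.46, limma adjusted p = 0.000487), the aldehyde oxidase gene Aox1 (-1.38, limma adjusted p = 0.00366) and Abcc2, the pump of the bile canaliculus (-0.89, limma adjusted p = 0.000237), fell. Among female livers the list counted 2 that rose and 2 that fell. Abcc4 lost its call in 10 of 24 alternatives (log2 fold changes of 1.10 to 2.03, adjusted p up to 0.0609), Aox1 in 6, Osgin1 in 3, Abcc5 in 2 and Akr1c13 in 1. Ptgr1 passed in all 24 alternatives, from 1.18 to 2.49 eRPKM in controls to 19.5 to 23.6 at 7 days.

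Slc7a11 is also a target of Atf4, the factor of the amino acid response. Of 10 genes of that list 3 rose (30.0%, against 18.0% of all genes) and none fell, with a median of 0.70: Atf3 (2.90, limma adjusted p = 1.59e-05), the serine synthesis gene Psat1 (2.77, limma adjusted p = 6.04e-05) and Slc3a2, which is also in the glutathione list. Atf3 and Psat1 passed in all 24 alternatives, whereas Slc3a2 lost its call in 16, and the list then counted 2 with size factors, quantile normalization and limma-voom. In none of the 7 lists did a gene pass at 3 days, when 0.0421% of all tested genes rose and 0% fell.

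**Figure D5:**
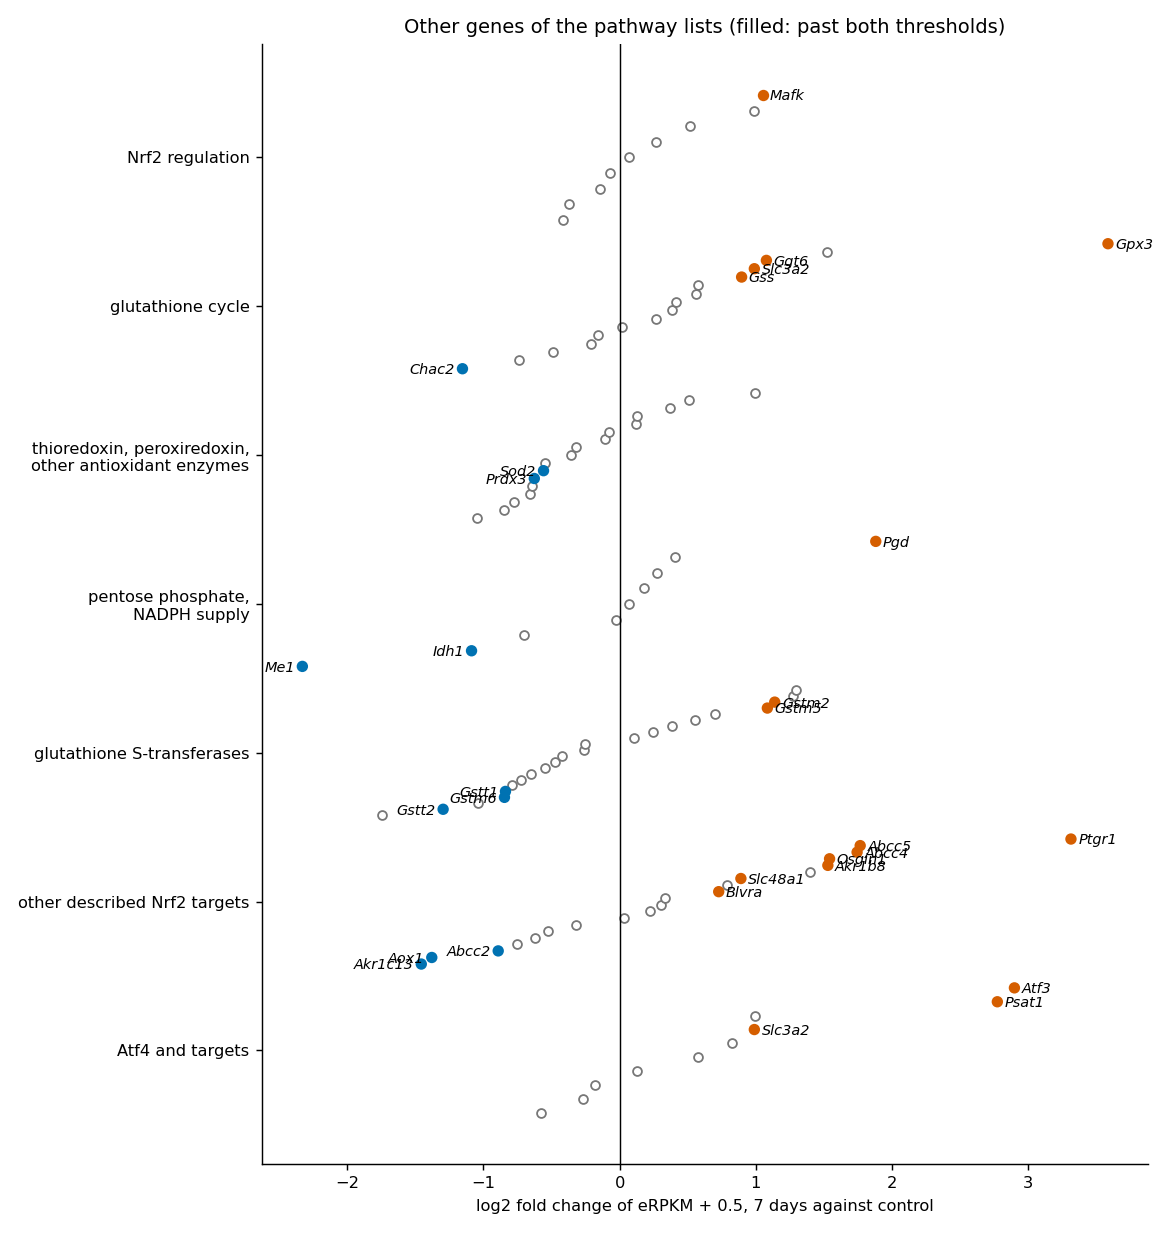
Log2 fold change at 7 days against control for each tested gene of the 7 pathway lists, ordered by value within a list; filled points passed both thresholds (orange higher, blue lower). Gpx3, Ptgr1, Atf3, Psat1 and Pgd are farthest to the right, and Me1 (-2.33) is farthest to the left.

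The genes whose pattern over the 11 livers was most like that of a member were sought by the root mean square difference of log2(eRPKM + 0.5), each gene centred on its control mean. For Hmox1 these were Tnfaip3 (0.23), Hk2 (0.27) and Kif23 (0.28). For G6pdx they were Gprc5a (0.13), Abr (0.16) and Ifngr1 (0.16). Gprc5a had group means of 0.121 eRPKM in controls and 1.69 at 7 days, so near 0 that the pseudocount sets much of its pattern. For Nqo1 they were Mdc1 (0.28), Cers6 (0.29) and Tmem109 (0.30). The difference between Hmox1 and G6pdx was 0.65 and that between Hmox1 and Nqo1 was 0.73. Members were among the genes searched, so a member that is not named is farther by construction.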

How the data were processed

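Total RNA of homogenised livers was sequenced in read pairs (TruSeq v2). Per the labels and the study's methods, the authors aligned reads to mm9 with TopHat 2.0.8, without strand, and the processing notes also name SAMtools, featureCounts 1.4.5-p1 and DESeq2; the gene annotation is not given in the sources used here. The table the authors deposited gives RPKM-type values (eRPKM), 1 column a liver, in 20893 rows. The authors' columns for 7 days against control (mean signal, log2 fold change and adjusted p) were not used. A pair of symbols in the table had been altered to dates.

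The members, lists and tests were chosen with earlier results of these data known. Genes named from the lists are at most 4 per list and direction. In R 4.3.3, limma 3.58.1 with an intensity trend in eBayes was run on log2(eRPKM + 0.5), 3 groups in one fit, no covariate, on 14244 genes; this scale understates the change of low genes. Exact permutation tests used all 70 or 35 splits. All 177553 values above 0 came out as whole reads (within 0.1 of a read), which gave the depth per liver; intervals cover the spread between livers. Both steps were tested on simulated data; the way the relative depths are set was revised after it failed on a simulated set, and the reads of the livers came out the same before and after. The alternatives were pseudocounts, filters, scalings, covariates (Xist, depth), female livers, left-out livers, the replicate number as a block, and limma-voom on the recovered reads; the last was run with median-ratio factors in place of the planned TMM factors. Replicate numbers did not pair the livers (same-number correlations -0.22 to 0.27). The marker lists of lymphocytes, neutrophils, endothelial, stellate and erythroid cells gave 0, 1, 2, 0 and 0 genes that rose at 7 days and 0, 0, 0, 1 and 1 that fell. Of these lists 5, 3, 7, 6 and 3 genes were tested, and over all tested genes 18.0% rose and 5.77% fell. Gene coordinates and overlaps came from GENCODE M1 (mm9), promoter windows from RefSeq (GRCm38.p6). The other steps ran in Python 3.11.15 with pandas 2.3.3, numpy 2.4.6, matplotlib 3.10.9 and scipy 1.17.1.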

Additional observations from a re-analysis of the deposited data

Results flagged for a closer look

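In 22 sets of 4 livers, each a gene or the depth in 1 group, the highest or lowest liver was tested for a gap to the next; chance alone passes about 1 in 20. Nqo1 in 3-day liver 3 (38.2 eRPKM) stood apart, with a gap of 0.873 of the group's range (past Dixon's 95% limit). Gpx2 was above 0 in a single control, liver 2, and a single 3-day liver, liver 1, which gives a gap of 1 in both and rests on 3 reads and 1 read. Depth of 3-day liver 1 was far below that of the other 3-day livers, a gap of 0.946.

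The effects of 3 and 7 days against the shared controls differed for 3 members, by the test of 7 against 3 days: Nfe2l2 by 0.83, Hmox1 by 2.46 and G6pdx by 2.08 on the log2 scale. All 3 livers at 7 days were above all 4 at 3 days for each of them.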

How the results depend on the processing

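Of 24 alternatives none turned the direction of a called member. Hmox1 and G6pdx were called in all 24 at 7 days, while Nfe2l2 and Nqo1 lost their calls in 6 and 15. Members that rose at 7 days numbered 4, and 2 with size factors, female livers, log2 depth as a covariate or limma-voom; leaving out 1 liver gave 2 to 4. With quantile normalization 5 members rose at 7 days and Slc7a11 fell. At an adjusted p under 0.05 and any fold change, 5 rose at 7 days, and Gclc fell both at 7 days and from 3 to 7 days.

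Genes that rose at 3 days numbered 6: 3 without a filter, 12 with size factors, 0 with the 2 compared groups only or without trend, 16 with Xist, 1 with depth and 40 at an adjusted p under 0.05; leaving out 1 liver gave 0 to 53. None fell, against 1 in female livers, 1 at an adjusted p under 0.05 and 0 to 2 with a liver left out. At 7 days 2561 genes rose, and 1523 in female livers, 1099 with depth and 3969 at an adjusted p under 0.05 (1588 to 2770 with a liver left out). The 822 that fell became 1254 with size factors, 1821 after quantile normalization, 1507 with limma-voom and 1421 at an adjusted p under 0.05 (469 to 914 with a liver left out). From 3 to 7 days 1997 rose, and 1326 with Xist, 1023 in female livers, 1091 with depth and 3621 at an adjusted p under 0.05 (1048 to 2619 with a liver left out). The 756 that fell became 1181, 1430, 401 and 1436 with size factors, quantile normalization, female livers and limma-voom, and 1464 at an adjusted p under 0.05 (364 to 1064 with a liver left out). The cause was not tested.

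With the replicate block, 3 genes rose at 3 days and 2032 rose at 7 days; Nqo1 (1.49, limma adjusted p = 0.0178) at 7 days, and Nfe2l2 (0.70, limma adjusted p = 0.0101) from 3 to 7 days, lost their calls. The livers share only a number. The ratio of Gclc to Gclm was tried under alternatives chosen after seeing the data and stayed between -0.52 and -0.37. Depth limited the lowest genes: the shallowest control had 12 reads on Nqo1 and 16 on Hmox1. The summed hepatocyte markers, genes of high level, were highest in that same control, at 4771 eRPKM.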
